A study of Mus musculus with 29 samples.

Results

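The genes described here were taken as markers of the thick ascending limb of the loop of Henle and the distal convoluted tubule, neighbouring parts of the nephron. They were chosen by name as 10 genes, of which 9 have a row among the 13982 genes of the table. Umod, Slc12a1, Kcnj1, Cldn16 and Cldn10 were assigned to the thick limb, and Slc12a3, Pvalb and Calb1 to the distal tubule. Egf, which both segments make, was assigned to both. Reads of these genes from other parts of the nephron cannot be told apart in bulk samples. The expression of Trpm6 was not analysed here. The rule used no measured value, but the genes were chosen with earlier results of these data known. The study asked how tertiary lymphoid structures (TLS), aggregates of lymphocytes that form inside a nephritic kidney, resemble lymph nodes in gene expression. It used (NZBxNZW)F1 mice, also called NZB/W, a cross that spontaneously develops antibodies to DNA and a lupus-like nephritis, and the labels give no treatment. From proteinuric mice there were 4 kidney libraries (mice 6 and 20, aged 39 and 36 weeks, and mice aged 32 and 25 weeks), 3 libraries of TLS cut out by hand under a loupe from the kidneys of mice 6 and 20 and of the mouse aged 25 weeks, and 3 lymph node libraries of mice 6 and 20 and of the mouse aged 32 weeks. A further 3 lymph node libraries came from antibody-positive mice 10, 11 and 25, aged 28, 29 and 18 weeks, and 1 from a young mouse aged 4 weeks. Each TLS library and the kidney library of the same mouse came from the same kidney. Because the TLS were dissected by hand, a TLS library can hold adjacent kidney tissue, and in bulk samples fewer cells of a type and less RNA per cell cannot be told apart.

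The thick ascending limb reabsorbs salt without water and so builds the salt gradient on which urine concentration rests. Its apical cotransporter, encoded by Slc12a1, takes up sodium, potassium and chloride, the potassium channel encoded by Kcnj1 returns potassium to the lumen, and the tight junction claudins encoded by Cldn16 and Cldn10 set the passage of magnesium, calcium and sodium between the cells. Thick limb cells also secrete uromodulin, the most abundant protein of normal urine, encoded by Umod. The distal convoluted tubule takes up salt through the thiazide-sensitive cotransporter encoded by Slc12a3, and its cells hold the calcium-binding proteins parvalbumin (Pvalb) and calbindin (Calb1). Egf encodes the precursor of epidermal growth factor, which is shed into the urine.

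The upstream sequences of 4 members are shown because the mean TLS value was 58.3% to 79.4% of the mean kidney value for the thick limb genes Umod, Slc12a1 and Cldn10 and 21.1% for the distal tubule gene Slc12a3. They are the RefSeq bases before the transcription start on GRCm38.p6, written 5′ to 3′ on the strand of the gene and without annotated exons. Capitals mark TATAAA (the sequence that the TATA-binding protein recognises), searched on both strands, as were the others. Capitals also mark GTTAAT, which is part of the site that proteins of the hepatocyte nuclear factor 1 family recognise. The last motif in capitals is GGGCGG, known as a GC box. No 2 of these motifs overlap in the bases shown. The thick limb gene Kcnj1, at 69.0%, lies in the same range of shares, but its upstream sequence is not shown and holds none of these motifs. Umod lies at chr7:119479283-119479512 (minus strand), Slc12a1 at chr2:125152350-125152504 (plus strand), Slc12a3 at chr8:94328958-94329200 (plus strand) and the first start of Cldn10 at chr14:118787621-118787870 (plus strand).
Umod: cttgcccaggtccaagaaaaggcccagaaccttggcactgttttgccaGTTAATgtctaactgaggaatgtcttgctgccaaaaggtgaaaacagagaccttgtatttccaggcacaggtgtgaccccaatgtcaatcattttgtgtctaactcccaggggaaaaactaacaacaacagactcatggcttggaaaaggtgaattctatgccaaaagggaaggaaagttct
Slc12a1: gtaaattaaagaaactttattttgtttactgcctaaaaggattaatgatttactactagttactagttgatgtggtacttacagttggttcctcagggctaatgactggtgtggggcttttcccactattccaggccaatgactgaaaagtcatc
Cldn10: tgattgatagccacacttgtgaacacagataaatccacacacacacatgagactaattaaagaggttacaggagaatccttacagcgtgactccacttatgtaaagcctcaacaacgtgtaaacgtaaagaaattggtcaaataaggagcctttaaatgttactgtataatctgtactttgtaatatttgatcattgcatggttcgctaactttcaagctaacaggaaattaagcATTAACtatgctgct
Slc12a3: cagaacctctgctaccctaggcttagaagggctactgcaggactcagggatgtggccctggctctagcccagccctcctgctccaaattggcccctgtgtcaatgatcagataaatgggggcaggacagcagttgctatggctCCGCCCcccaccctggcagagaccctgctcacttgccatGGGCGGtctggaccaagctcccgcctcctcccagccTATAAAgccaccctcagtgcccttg

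Of the 12 promoters that RefSeq gives for the 10 genes named (250 bases before each start, Trpm6 included, no entry for Calb1), 1 held TATAAA (Slc12a3), 2 held GTTAAT (Umod and Cldn10) and 2 held GGGCGG (Slc12a3 and the second start of Cldn10). Among all 32851 RefSeq promoters of the same length, the shares were 12.4%, 6.43% and 32.7%. These matches are a description of the letters in the window. Because Cldn10 has 2 starts, its value pools transcripts from both.

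The table lists, per gene and library, the reads plus 1 divided by a size factor, so a gene without a read is listed between 0.809 and 1.45 in the proteinuric lymph nodes. The libraries held 343825 to 443379 reads, and 3 reads, the floor used here, equalled a value of 2.36 to 5.32 depending on the library. Ribosomal RNA took 55.6% of the reads of the kidney of the mouse aged 32 weeks, 31.8% of the lymph node of mouse 6 and 21.3% of the reads in 1 TLS, that of the mouse aged 25 weeks. In the remaining libraries it took 5.33% or less. The labelled tissues carried their markers: 6 proximal tubule genes summed to values from 5528 to 15715 in kidney, 889.5 to 6327 in TLS and 4.86 to 10.1 in all lymph nodes, and 5 B-cell genes to 5.79 to 27.8 in kidney, 324 to 471 in TLS and 576 to 1186 in lymph node. The TLS also held urothelium genes, with a sum of 133 to 736 over 5 genes against 8.87 to 26.7 in kidney.

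The TLS contained RNA of both segments, at a lower share of the mean kidney value for the 3 distal tubule genes (14.3% to 22.9%) than for the 5 thick limb genes (38.4% to 79.4%). The mean TLS value was 79.4% of the mean kidney value for Slc12a1, 78.9% for Cldn10, 69.0% for Kcnj1, 58.3% for Umod and 38.4% for Cldn16, with a median of 69.0% over these 5 thick limb genes. It was 22.9% for Pvalb, 21.1% for Slc12a3 and 14.3% for Calb1, with a median of 21.1% over these 3 distal tubule genes, and 34.8% for Egf. These shares include the added read. Cldn16, Pvalb and Calb1 had at most 3 reads in 2, 2 and 3 of the 3 TLS, so among the distal tubule genes only Slc12a3 was above the floor throughout. Without the added read, the mean in TLS and kidney was 0.625 and 9.54 for Calb1 and 2.02 and 6.46 for Cldn16. The medians were then 68.8% and 20.0%. As a test of this difference, the ratios of Umod and of Slc12a1 to Slc12a3 within a library could not decide it. With 35 regroupings the smallest possible p is 0.0571, which the Umod ratio reached (exact permutation p = 0.0571, adjusted 0.229). The Slc12a1 ratio gave p = 0.171 by the same exact permutation test (adjusted 0.305). Slc12a3 alone stood for the distal tubule in both, and the regroupings ignored the pairing of TLS and kidney by mouse. Over the 6270 genes tested that had a kidney mean of at least 5, the median share was 89.5%. Of the 8 members that passed the filter for testing (a mean value of at least 5 over the 10 libraries of proteinuric mice), Slc12a3 and Calb1 were called higher in kidney than in TLS at an adjusted p under 0.05, 2 of 8, against 6.07% of all genes tested. Their median log2 fold change (kidney over TLS) was 1.01, against 0.01 over all genes tested. By reads divided by the size factor, without the added read, 3 of the 9 members had every kidney value above every TLS value (Cldn16, Slc12a3 and Calb1), against 11.3% of the genes tested. Cldn16 had a mean of 4.25 and was not tested, and Calb1 passed with a mean of 5.06 only through kidney, as its mean over TLS and lymph node was 1.30. Pvalb, too, passed through kidney, with a mean of 3.22 in TLS and lymph node.

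**Figure D1:**
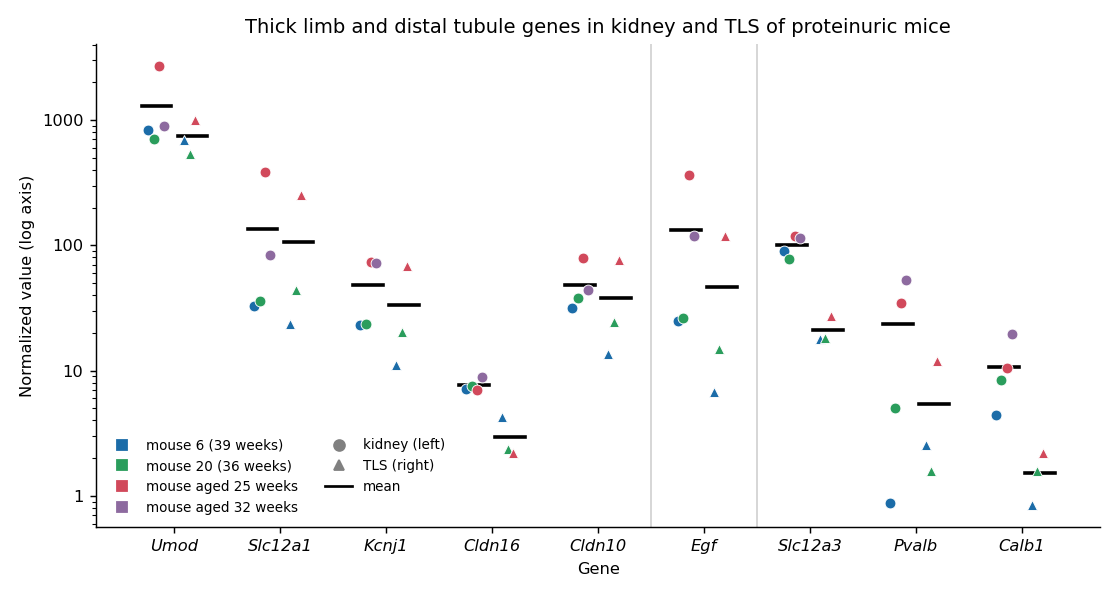
Normalized value (log axis) of the 9 members in the 4 kidney libraries (circles) and 3 TLS libraries (triangles) of proteinuric mice, coloured by mouse, with the mean as a black line. The grey lines set Egf apart from the thick limb genes on the left and the distal tubule genes on the right, and kidney and TLS values do not overlap for Cldn16, Slc12a3 and Calb1.

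Umod (chr7:119462711-119479282, minus strand) had the highest value of the members in each of the 7 kidney and TLS libraries. It stood at 830 in the kidney of mouse 6, 705 in that of mouse 20, 893 in that of the mouse aged 32 weeks and 2705 in that of the mouse aged 25 weeks. In the TLS it was 697 in mouse 6, 539 in mouse 20 and 1009.7 in the mouse aged 25 weeks. The groups overlapped, since the TLS value of the mouse aged 25 weeks was above 3 of the 4 kidney values. As a share of the kidney of the same mouse, the TLS value was 84.0% in mouse 6, 76.5% in mouse 20 and 37.3% in the mouse aged 25 weeks. Those shares rest on 685 reads or more per library, and exact binomial intervals on the reads, which cover counting error only, were 76.3% to 92.3%, 69.0% to 84.7% and 34.5% to 40.3%. Each TLS was therefore below its own kidney by more than the counting error. Over the 6270 genes tested with a kidney mean of at least 5, however, the median share of the own kidney was 83.5%, 82.8% and 80.6%. The Umod intervals of mice 6 and 20 held that median, and the interval of the mouse aged 25 weeks lay below it. The groups did not differ beyond the spread between mice (log2 fold change 0.59, SE 0.47, adjusted p = 0.454 by limma).

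Slc12a1 (chr2:125152505-125230002, plus strand), the salt cotransporter of the thick limb, varied most between mice among the thick limb genes. Its kidney values were 32.7 (mouse 6), 36.3 (mouse 20), 83.4 (aged 32 weeks) and 386 (aged 25 weeks), an 11.8-fold range with a coefficient of variation of 126%. Its TLS values were 23.7 (mouse 6), 44.0 (mouse 20) and 253 (aged 25 weeks), which followed the order of the kidneys. The TLS value was 72.6%, 121% and 65.5% of the kidney of the same mouse, so that in mouse 20 the TLS was not below the kidney. Kidney and TLS did not differ beyond the spread (log2 fold change 0.29, SE 0.91, adjusted p = 0.881 by limma), and the sign turned without the kidney of the mouse aged 25 weeks (-0.47) or without the TLS of mouse 6 (-0.42).

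Kcnj1 (chr9:32372493-32399197, plus strand), the potassium channel, fell into a low and a high pair of kidneys: 23.0 and 23.6 in mice 6 and 20, and 72.8 and 74.2 in the mouse aged 32 weeks and the mouse aged 25 weeks. Its TLS values were 11.02, 20.4 and 68.7 in mice 6 and 20 and the mouse aged 25 weeks, or 48.0%, 86.5% and 92.6% of the kidney of the same mouse. The highest TLS thus came close to the highest kidneys, and the groups did not differ beyond their spread (log2 fold change 0.70, SE 0.59, adjusted p = 0.485 by limma).

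Cldn10 (chr14:118787908-118875489, plus strand), a claudin of sodium and of anion passage, had kidney values of 31.8 (mouse 6), 37.96 (mouse 20), 44.4 (aged 32 weeks) and 78.8 (aged 25 weeks). Its TLS values were 13.6 (mouse 6), 24.4 (mouse 20) and 76.3 (aged 25 weeks). The TLS of mice 6 and 20 lay below every kidney and the TLS of the mouse aged 25 weeks above 3 of the 4, and the shares of the own kidney were 42.6%, 64.2% and 96.8%. The difference was not called (log2 fold change 0.60, SE 0.50, adjusted p = 0.471 by limma) and was called only without the TLS of the mouse aged 25 weeks (1.27, adjusted p = 0.0475).

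Cldn16 (chr16:26463135-26482765, plus strand), the claudin of magnesium passage, was low and even in kidney, from 6.95 in the mouse aged 25 weeks through 7.07 (mouse 6) and 7.59 (mouse 20) to 8.87 (aged 32 weeks), a coefficient of variation of 11.5%. The TLS values of 4.24 (mouse 6), 2.36 (mouse 20) and 2.18 (aged 25 weeks) were all lower. These values rest on 4 to 8 reads in kidney and 1 to 4 in TLS, and 2 of the 7, both in TLS, are under the floor of 3 reads. Without the filter on low values, when 13982 genes were tested, the difference was called (log2 fold change 1.17, adjusted p = 0.0284 by limma).

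Slc12a3 (chr8:94329201-94366214, plus strand), the salt cotransporter of the distal tubule, was called lower in TLS. Its share of the own kidney had an SD of 1.98 percentage points over the 3 mice, around a mean of 22.0%. The SD was 25.0 around 65.9% for Umod and 30.4 around 86.5% for Slc12a1. Calb1, with at most 1 TLS read, had an SD of 1.19 around 19.6%. Slc12a3 stood in kidney at 90.2 (mouse 6), 77.6 (mouse 20), 114 (aged 32 weeks) and 118 (aged 25 weeks), a coefficient of variation of 19.3%. In the TLS it was 17.8 (mouse 6), 18.1 (mouse 20) and 27.3 (aged 25 weeks), and no TLS value reached a kidney value. The shares of the own kidney were 19.7%, 23.3% and 23.1%, on 20 to 24 TLS reads each, with intervals that together ran from 11.1% to 36.2%. Each interval was far wider than the SD, so an even share across mice cannot be read from it. The difference was 2.20 on the log2 scale (SE 0.29, adjusted p = 0.000422 by limma) and was called in all 16 alternatives run.

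Calb1 (chr4:15881264-15908064, plus strand), calbindin, was called as well but rests on few reads. It had kidney values of 4.42 (mouse 6), 8.43 (mouse 20), 19.5 (aged 32 weeks) and 10.4 (aged 25 weeks), from 4 to 10 reads. Its TLS values of 0.848 (mouse 6, no read), 1.57 (mouse 20, 1 read) and 2.18 (aged 25 weeks, 1 read) were under the floor and below every kidney. The log2 fold change was 2.08 (SE 0.55, adjusted p = 0.0230 by limma), without a call when the TLS of mouse 6 was left out (1.87, adjusted p = 0.0742). When the kidney of mouse 20, of the mouse aged 32 weeks or of the mouse aged 25 weeks was left out, Calb1 fell under the filter and was not tested.

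Pvalb (chr15:78191114-78206400, minus strand), parvalbumin of the early distal tubule, differed widely between kidneys, with a coefficient of variation of 106%. No read was found in the kidney of mouse 6, 5 reads (a value of 5.06) in mouse 20, and values of 34.8 and 53.2 in the mouse aged 25 weeks and in the mouse aged 32 weeks, from 29 reads each. Its TLS values were 2.54 (mouse 6, 2 reads), 1.57 (mouse 20, 1 read) and 11.99 (aged 25 weeks, 10 reads). In the mouse aged 25 weeks the TLS held 34.5% of the kidney value, while in mice 6 and 20 the TLS was under the floor. The groups overlapped and the difference was not called (log2 fold change 1.31, SE 1.03, adjusted p = 0.451 by limma).

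Egf (chr3:129677565-129755316, minus strand), the growth factor precursor, was lower in each TLS than in the kidney of the same mouse. Its kidney values were 24.8 (mouse 6), 26.1 (mouse 20), 119 (aged 32 weeks) and 365 (aged 25 weeks), a 14.7-fold range. Its TLS values were 6.78 (mouse 6), 14.9 (mouse 20) and 118 (aged 25 weeks), that is 27.4%, 57.1% and 32.3% of the own kidney. The groups overlapped and the fit across mice gave no call (log2 fold change 1.60, SE 1.07, adjusted p = 0.371 by limma), whereas the paired fit with the mouse as a replicate block did (1.65, SE 0.49, adjusted p = 0.0408). That fit compares TLS and kidney within a mouse and leaves out the spread between mice.

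**Figure D2:**
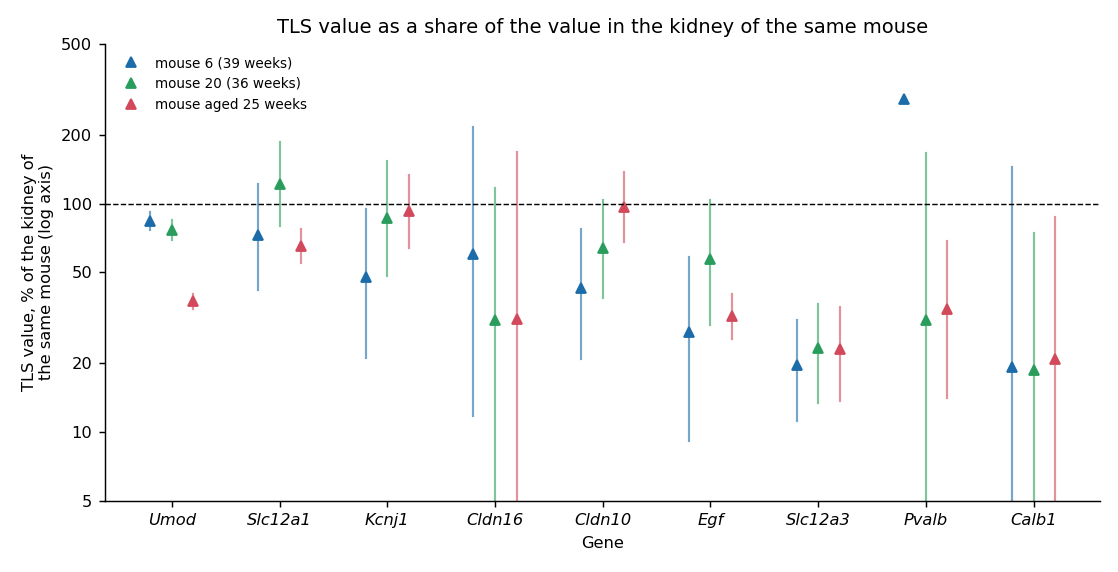
TLS value as a percent of the value in the kidney of the same mouse (log axis) for the 9 members, with exact binomial intervals on the reads for counting error, cut at 5% below. The dashed line marks equal values, and of the 27 shares only those of Slc12a1 in mouse 20 (121%) and of Pvalb in mouse 6, where the kidney had no read and no interval is drawn, lie above it.

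Across the 9 members and 3 mice, the TLS value was below that of the own kidney in 25 of 27 pairs, against 57.3% of the pairs over all genes tested. The 27 pairs come from 3 mice and are not replicates. They include Cldn16, which was not tested, and Pvalb and Calb1, which passed the filter only through kidney. Several of the pairs counted as below had a counting interval that included equal values, among them all 3 of Cldn16. The 3 distal tubule genes had a median share of the own kidney of 19.7% in mouse 6, 23.3% in mouse 20 and 23.1% in the mouse aged 25 weeks, and the 5 thick limb genes 59.9%, 76.5% and 65.5%. Over the 6270 genes tested with a kidney mean of at least 5, that median was 83.5%, 82.8% and 80.6%. Against the mean of all 4 kidneys, however, the median thick limb share was 28.1%, 42.0% and 142% in these TLS, and the distal tubule share 10.8%, 14.7% and 27.3%. The thick limb shares thus ranged from 28.1% to 142% between TLS libraries with 1 denominator, and from 59.9% to 76.5% with the kidney of the same mouse. The median thick limb share of 69.0% became 39.3% without the TLS of the mouse aged 25 weeks, and the distal tubule share of 21.1% became 11.3%.

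The kidney of the mouse aged 25 weeks held the highest kidney value for 6 of the 9 members, and the mouse aged 32 weeks for the other 3. The TLS of the mouse aged 25 weeks held the highest TLS value for 8 of the 9, all but Cldn16. In these libraries other tubule genes were high as well. The 6 proximal tubule markers summed to 15715 in that kidney and to 15575 in the kidney of the mouse aged 32 weeks, against 5528 and 8081 in mice 6 and 20, and to 6327 in the TLS of the mouse aged 25 weeks, against 889.5 and 3692. The 5 collecting duct markers with a row summed to 167 in that kidney, against 65.4 to 81.8 in the others, but in the TLS of that mouse to 77.4, against 101 and 192. Their part in the values of the members was not tested. Age, mouse and dissection cannot be told apart, as each mouse gave 1 library of each tissue.

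Compared per kilobase of annotated exon, Umod stood alone in kidney, with a mean of 464 and a range of 255 to 979. Slc12a1 (23.4), Pvalb (22.6), Cldn10 (18.6), Kcnj1 (14.5), Egf (11.9), Slc12a3 (8.98) and Cldn16 (6.50) followed, each overlapping its neighbour in this order, and Calb1 came last at 2.21, below all Cldn16 values. The lengths join the exons of all annotated transcripts (1041 bases for Pvalb, 11275 for Egf), which lowers the levels of genes with many transcripts.

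Within a library, the ratio of 2 genes does not depend on the scaling. There were 41.05, 31.1 and 38.5 Umod reads per Slc12a3 read in the TLS of mice 6 and 20 and of the mouse aged 25 weeks. In the kidneys there were 9.29, 9.18 and 23.1 in the same mice and 7.97 in the mouse aged 32 weeks, so that the ratio was 4.42-, 3.39- and 1.67-fold higher in the TLS than in the own kidney. All 3 TLS lay above all 4 kidneys, a difference of 1.71 on the log2 scale. That gave the smallest p that 35 regroupings allow in an exact two-sided permutation test (p = 0.0571, 0.229 adjusted over the 4 ratios computed). With 3 against 4 libraries, this test cannot reach 0.05. For all 4 ratios, the regroupings ignored that each TLS shares its mouse with a kidney library. Of the upstream sequences shown, that of Slc12a3 holds TATAAA and GGGCGG, and that of Umod holds GTTAAT. A link between these motifs and the ratio was not tested. The reads of Slc12a1 per Slc12a3 read were 1.35, 2.50 and 9.625 in the TLS and 0.356, 0.462 and 3.29 in the own kidneys, with 0.730 in the mouse aged 32 weeks. Each TLS was again above its own kidney, by 3.79-, 5.42- and 2.93-fold, but the tissues overlapped (difference 2.01, exact permutation p = 0.171, adjusted 0.305). Within the thick limb, Slc12a1 reads per Umod read moved both ways between kidney and TLS (0.857-, 1.60- and 1.75-fold, exact permutation p = 0.743). The reads of Egf per Umod read were lower in each TLS than in the own kidney, by a factor of 0.296, 0.731 and 0.859 (difference -1.14, exact permutation p = 0.229, adjusted 0.305).

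**Figure D3:**
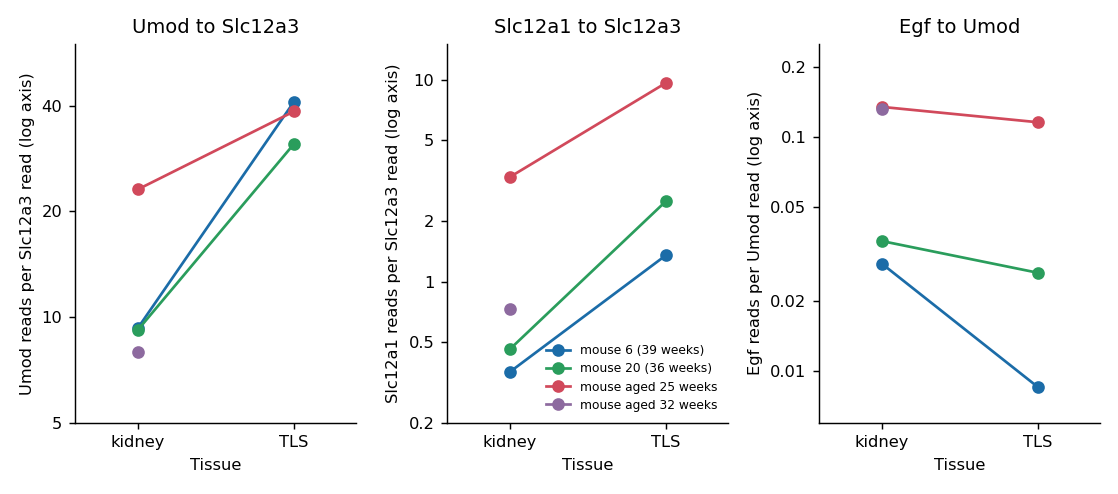
Reads of Umod per Slc12a3 read, of Slc12a1 per Slc12a3 read and of Egf per Umod read (log axes) in kidney and TLS, with lines that join the tissues of a mouse; the mouse aged 32 weeks has no TLS library. The first ratio is 7.97 to 23.1 in kidney and 31.1 to 41.05 in TLS, and the last falls within each mouse.

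The other genes of these segments were taken from 2 lists of textbook genes. Of 12 other thick limb genes, 11 had a row and 8 were tested. Of these 8, 1 was called higher in kidney than in TLS and none lower, against 6.07% called higher over all genes tested. Their median log2 fold change was 0.58, against 0.01 over all genes tested. The called gene was Car15, a membrane-bound carbonic anhydrase, with kidney values of 55.0 to 122 and TLS values of 14.2 to 34.8 (1.68, SE 0.40, adjusted p = 0.0133 by limma). Unlike Slc12a1, Car15 was higher in the kidneys of mice 6 and 20 (122 and 116) than of the mice aged 25 and 32 weeks (67.2 and 55.0). Its TLS value was lowest in the mouse aged 25 weeks. The protease inhibitor gene Wfdc15b, high in kidney, ranged from 22.1 to 374 in kidney and from 18.7 to 245 in TLS (0.47, adjusted p = 0.825), and Ppp1r1a, a phosphatase inhibitor, from 24.8 to 140 and from 22.0 to 91.6 (0.56, adjusted p = 0.601). In both, as in Slc12a1, the mouse aged 25 weeks held the highest value of each tissue.

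Of 24 other distal tubule genes, 22 had a row and 14 were tested. Of these 14, 4 were called higher in kidney than in TLS and none lower, against 6.07% called higher over all genes tested. Their median log2 fold change was 1.01, against 0.01 over all genes tested. S100g, a calcium-binding protein like calbindin, stood at 101 to 261 in kidney and 12.7 to 74.7 in TLS (2.32, SE 0.52, adjusted p = 0.00978 by limma). Klk1, tissue kallikrein of the connecting tubule, stood at 392 to 703 and 116 to 190.2 (1.92, SE 0.57, adjusted p = 0.0389), and belongs to a family of close copies that may share reads. Kcnj16, a subunit of the basolateral potassium channel, stood at 111 to 189 and 28.0 to 67.6 (1.62, SE 0.36, adjusted p = 0.00948), and Scnn1a, a subunit of the epithelial sodium channel, at 9.73 to 26.7 and 4.24 to 8.72 (1.31, SE 0.37, adjusted p = 0.0308). Scnn1a passed the filter only through kidney, as its mean over TLS and lymph node was 3.48. Fxyd2, a subunit of the sodium pump, was not called, although its kidney values of 1393 to 4658 lay above its TLS values of 461 to 1137 (1.72, SE 0.54, adjusted p = 0.0528). The calls of this list depend on the test and the libraries: edgeR's quasi-likelihood test on the reads called none of the 14 (6 were higher in kidney at an unadjusted p under 0.05), DESeq2 called 4, and leaving out 1 library gave 0 (without the TLS of mouse 6, with 6 at an unadjusted p under 0.05 by limma) to 7 calls (without that of the mouse aged 25 weeks).

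**Figure D4:**
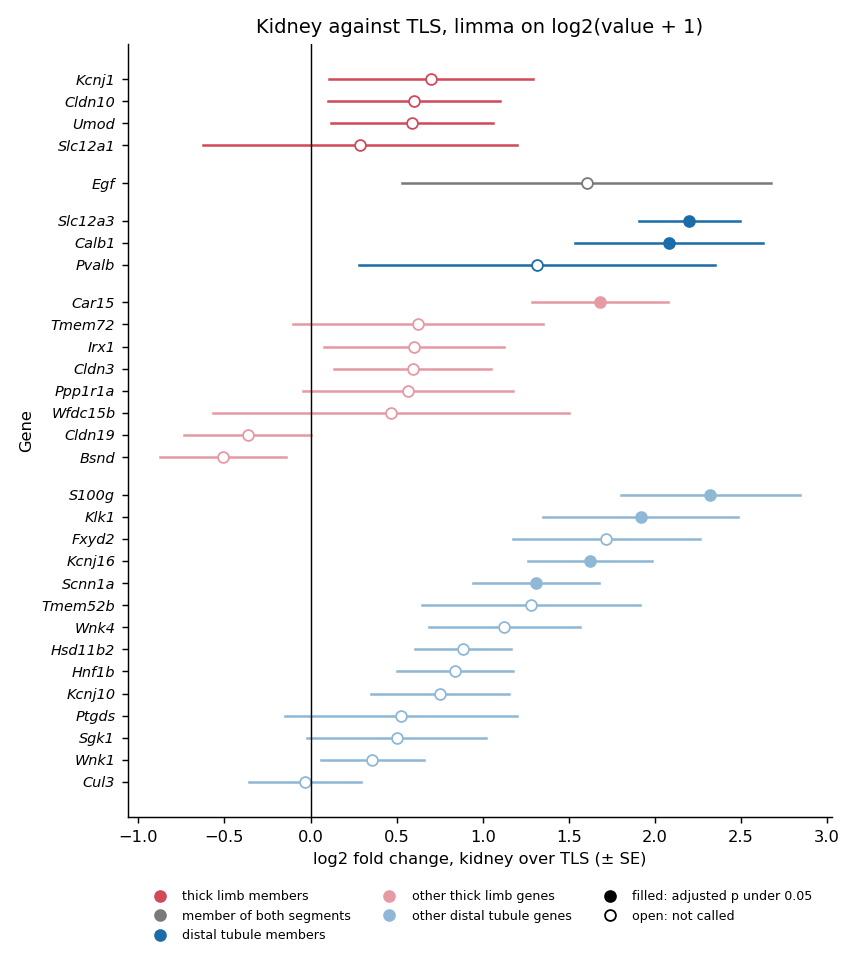
Log2 fold change of kidney over TLS with its SE for the members and the 22 other thick limb and distal tubule genes that were tested; filled points were called at an adjusted p under 0.05. Filled points are Slc12a3, Calb1, Car15, S100g, Klk1, Kcnj16 and Scnn1a.

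By median share of the kidney mean (genes with a kidney mean of at least 5), the other thick limb genes (67.4%) stood near the thick limb members, while the other distal tubule genes (47.7%) lay between these and the distal tubule members. Collecting duct markers had a median of 63.4%, proximal tubule markers 20.7% and podocyte markers 20.8%.

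Comparison with lymph nodes, which hold no nephron, gave the background of these genes. In all 3 lymph nodes of proteinuric mice, none of the 9 members had a read, where a count of 0 allows a value of up to 2.43 to 4.35. Set against the mean of these floors per library, Umod was at least 233-fold higher in TLS and at least 400.0-fold higher in kidney, and Slc12a1 by a factor of at least 33.1 in TLS and 41.6 in kidney. The bound in TLS was at least 14.2-fold for Egf, 11.6-fold for Cldn10, 10.1-fold for Kcnj1, 6.28-fold for Slc12a3 and 1.39-fold for Pvalb, a median of 11.6 over the 7 members above the floor. Without the TLS of the mouse aged 25 weeks, the TLS bound was 10.3 for Slc12a1, 5.66 for Cldn10, 4.65 for Kcnj1 and 3.13 for Egf, and Pvalb was under the floor. The TLS means of Cldn16 (1 to 4 reads per library) and Calb1 (at most 1 read) were under the mean floor, so no fold is given for them. In kidney the bounds ran from 2.01 for Cldn16 and 2.98 for Calb1 through 6.96 for Pvalb, 14.7 for Cldn10, 14.7 for Kcnj1 and 30.8 for Slc12a3 to 41.4 for Egf and the values above. Without the kidney of the mouse aged 25 weeks, the kidney bound was 252 for Umod, 15.5 for Slc12a1 and 17.3 for Egf, and without that of the mouse aged 32 weeks it was 3.93 for Pvalb.

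Of the 8 members tested, 5 were called higher in TLS than in lymph node (Umod, Slc12a1, Kcnj1, Cldn10 and Slc12a3), against 8.87% of all genes. Egf missed the threshold (adjusted p = 0.0821 by limma) with an SE of 1.14, and was called with the mouse as a replicate block (adjusted p = 0.00967). Pvalb (adjusted p = 0.554) and Calb1 (adjusted p = 0.839) were not called. In the comparison of kidney with lymph node, 7 of 8 were called, against 23.0% of all genes. Pvalb was not (adjusted p = 0.0650 by limma) but was called without the kidney of mouse 6 (adjusted p = 0.00513). Calb1, among the 7, passed the filter only through kidney, as did Pvalb. Since nephron genes were chosen and lymph nodes hold no nephron, the excess over all genes in both comparisons was set by that choice. By reads divided by the size factor, the TLS lay above the lymph nodes in all libraries for 8 of 9, all but Calb1, against 17.7%, where a single read in a TLS library is enough, and the kidneys for 8 of 9, all but Pvalb, against 24.4%. Of the other genes, 7 of 8 thick limb and 9 of 14 distal tubule genes tested were called higher in TLS than in lymph node.

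Lymph nodes of the antibody-positive mice and of the young mouse also held no read of the members, with 1 exception. Pvalb had 50 of 423814 reads (a value of 58.5, or 0.0118%, 95% Wilson interval 0.00895% to 0.0156%) in the lymph node of antibody-positive mouse 25, aged 18 weeks, against a value of 53.2 in the highest kidney. The other 8 members had no read in this library. Fast skeletal muscle also makes parvalbumin, and muscle genes were read in the same library: Acta1 had 93 reads, Ckm 92, Mylpf 57, Tnnt3 50, Tnnc2 35, Tnni2 27, Myh4 26 and Atp2a1 25, against at most 4 in any other lymph node. These 8 muscle genes were chosen after their values were seen. Kidney and TLS libraries had at most 3 reads of any of them, with the defining gene Ckm at 0. The part of muscle RNA in the Pvalb value was not tested.

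**Figure D5:**
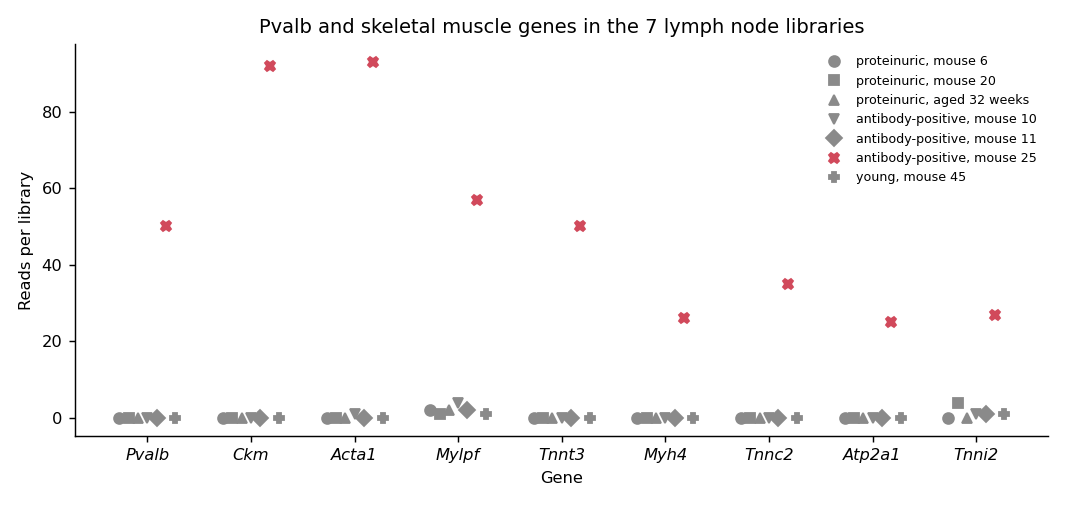
Reads of Pvalb and of 8 skeletal muscle genes in the 7 lymph node libraries. The library of antibody-positive mouse 25 (red crosses) holds 25 to 93 reads of each, and the other 6 (grey) at most 4.

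Over the 7 kidney and TLS libraries, the genes whose log2 values followed Umod most closely, among 2350 genes with a mean of at least 20, were Apeh (Pearson r = 0.965), Suds3 (0.963) and Tuba4a (0.955). Those most like Slc12a3 were Acaa1b (0.993), Ces2c (0.990) and Tmem19 (0.987). Acaa1b encodes a peroxisomal thiolase, and its value was 64.1 to 124 in kidney and 15.3 to 27.3 in TLS, close to Slc12a3 in every library. These correlations describe 7 libraries that share mice and tissue, and the likeness was the criterion by which the genes were picked.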

How the data were processed

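Per the labels and the study's methods, poly(A) RNA was sequenced on an Ion Torrent PGM, and CLC Genomics Workbench 8 was used for trimming and for counting reads per gene on GRCm38. The authors deposited a signal per gene and library. It was a whole number of reads plus 1, divided by a DESeq size factor, in 100% of values (tolerance 1e-06). Lymph node RNA of antibody-positive mice was purified by miRNeasy, and the rest by TRIzol. A single fit of the 10 libraries from proteinuric mice was made with limma 3.58.1 (R 4.3.3; trend and robust moderation) on log2(value + 1). It covered 7382 genes whose mean was at least 5, called at a Benjamini-Hochberg adjusted p under 0.05. Fold changes are on that scale, which understates the change of low genes. On the recovered reads, edgeR 4.0.16 called 830 genes and DESeq2 1.42.0 called 978 genes between kidney and TLS, against 1084 by limma. Each test across genes was first run on simulated counts with known changes.

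TLS and kidney with the same mouse number came from the same kidney. Deviations from the tissue means correlated across genes at 0.351, 0.364 and 0.454 in the 3 pairs of one mouse and at -0.498 to 0.361 in pairs of different mice, so the mouse was also used as a replicate block. The members, the lists and the ratios were chosen with earlier results of these data known. Named were all members, of the other segment genes those called and the 3 with the highest kidney mean, and the 3 genes most like Umod and Slc12a3. Gene positions are from GENCODE M21 (GRCm38). The 15 whole-kidney libraries of another platform and the expression of Trpm6 were not analysed here, and list genes that are not reported here were left out of the lists' counts and medians.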

Additional observations from a re-analysis of the deposited data

Results flagged for a closer look

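In the kidney of the mouse aged 25 weeks, Umod (2705) and Slc12a1 (386) lay far from the other 3 kidneys, with a gap to the nearest library of 90.6% and 85.6% of the range over the 4 kidneys, above Dixon's 95% limit for 4 values. These were 2 of 17 genes looked at, and chance flags about 1 in 20 such groups. Without that kidney, the log2 fold change of Slc12a1 (kidney over TLS) was -0.47 in place of 0.29.

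Pvalb had a value of 58.5 (50 reads) in the lymph node of antibody-positive mouse 25, a library outside the comparisons, and no read in the other 6 lymph nodes. The muscle genes Ckm (92 reads) and Acta1 (93 reads) were at 0 and at most 1 read in those.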

How the results depend on the processing

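Of 362 alternative values of the members' log2 fold changes over the 3 comparisons, 352 kept their direction and their side of the threshold, 7 became called, 1 lost its call and 2 reversed, both of Slc12a1 between kidney and TLS (-0.4717 without the kidney of the mouse aged 25 weeks and -0.4177 without the TLS of mouse 6, in a range up to 1.2621 without the TLS of the mouse aged 25 weeks). The members called higher in kidney than in TLS numbered 2, with 1 at a mean value of at least 20 (where Calb1 is not tested), 3 with the replicate block and 1 to 3 with one library left out. The other distal tubule genes called numbered 4, 0 with edgeR and 0 to 7 with one library left out. The median distal tubule share of 21.1% ranged from 11.3% to 22.7% with one library left out, and the thick limb share of 69.0% from 39.3% to 92.5%. DESeq2 also called Egf in TLS over lymph node (adjusted p = 0.000191) and Pvalb in kidney over lymph node (adjusted p = 0.000808), and Egf in TLS over lymph node was called without the TLS of mouse 6 (adjusted p = 0.0371). Apart from Egf, the replicate block changed no call of a member. With edgeR on the reads, which changes the scaling and the model together, the median log2 fold change of all genes (kidney over TLS) was -0.11 in place of 0.01, and the share of its calls that were higher in kidney was 20.4%, against 41.3% by limma. The cause of these changes was not tested. Depth limits Cldn16, Calb1 and Pvalb, whose TLS values rest on at most 10 reads.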
